A study of Mus musculus with 6 samples.

Results

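The microRNAs described here are made from 7 mouse hairpins that are reported to bypass part of the usual processing route, namely miR-320, miR-484, miR-877, miR-1224, miR-702, miR-1981 and miR-1839. They were chosen by hairpin name, with every arm in the table included, which gave 13 of the 1915 distinct mature names. They were measured by small RNA sequencing in iBN cells, a mouse suspension line that the labels call granulocyte-macrophage progenitor and that carries an inducible system for PU.1, a transcription factor of myeloid cells (gene Spi1). Induced cells were given 1000 ng/ml doxycycline for 72 hours (n = 3 libraries, trials 1 to 3), and uninduced cells carried the same system without doxycycline (n = 3 libraries, trials 1 to 3). Both groups grew with GM-CSF, and doxycycline alone, on cells lacking the PU.1 system, was not analysed here, so an effect of the drug and of PU.1 cannot be told apart. The labels do not say whether the line is a clone or whether trials were separate cultures, so p-values cover only how these libraries vary, and that variation may be technical.

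Most animal microRNAs are cut out of a long transcript in the nucleus by the Drosha and DGCR8 complex, and the released hairpin is cut again in the cytoplasm by Dicer before a strand is loaded into an Argonaute protein. Capped hairpins such as miR-320 begin at the start site of transcription and carry the cap at their 5′ end, so Drosha is not needed, and the capped 5′ strand is poorly loaded. Mirtrons are short introns whose ends are made by splicing in place of Drosha, after which the debranched intron folds into a hairpin for Dicer. Some small nucleolar RNAs and small Cajal body RNAs, which normally guide the chemical modification of other RNAs, are also cut by Dicer into microRNA-like pieces, as described for the human RNA ACA45.

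The libraries held 8697384 to 13946613 reads with 1 entry kept per name. The myeloid microRNAs miR-223 and miR-142a, both arms of each, together stood at 74774 to 92246 CPM in induced and 72792 to 91694 CPM in uninduced libraries (CPM, counts per 1e6 reads after TMM scaling). Of the erythroid, embryonic stem, liver, muscle and neural marker lists, each summed to at most 1.57 CPM in any library, with miR-144-3p, miR-206-3p, miR-124-3p and 5 of the 7 embryonic stem markers at 0. The epithelial list summed to 79.1 to 99.2 CPM in induced and 31.4 to 38.9 CPM in uninduced libraries, and its part in the results given here was not tested. In such bulk libraries, fewer cells of a type and less RNA per cell cannot be told apart.

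The mature sequences are shown for their seeds and, in the mirtrons, for their ends, which lie at the splice sites. RefSeq (GRCm38.p6) held 10 of the 13 mature members. The prefix mmu marks the mouse. In each sequence, read 5′ to 3′, the capitals mark the seed, bases 2 to 8, which pairs with target messages.
mmu-miR-484: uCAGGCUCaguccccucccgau
mmu-miR-877-5p: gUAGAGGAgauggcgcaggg
mmu-miR-877-3p: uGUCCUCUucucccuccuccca
mmu-miR-1981-5p: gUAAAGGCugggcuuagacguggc
mmu-miR-1981-3p: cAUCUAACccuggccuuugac
mmu-miR-702-5p: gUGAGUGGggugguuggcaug
mmu-miR-702-3p: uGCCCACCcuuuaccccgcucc
mmu-miR-1224-5p: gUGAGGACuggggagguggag
mmu-miR-1224-3p: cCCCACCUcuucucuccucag
mmu-miR-1839-5p: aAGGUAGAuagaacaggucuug

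No 2 of these 10 share a seed. Only miR-702-5p shares its seed with another mouse entry of the RefSeq table, miR-3102-5p, which was too rare to be tested here. All 4 mirtron 5p arms begin with GU, the first bases of an intron.

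The hairpins of the 4 mirtrons were set against the introns of the GENCODE M21 annotation (GRCm38, the assembly also called mm10). The capitals mark the mature arms, so that the distance of each arm from the splice ends can be read.
Mir877: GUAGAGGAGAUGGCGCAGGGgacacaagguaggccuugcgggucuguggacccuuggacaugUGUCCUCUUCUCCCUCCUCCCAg
Mir1224: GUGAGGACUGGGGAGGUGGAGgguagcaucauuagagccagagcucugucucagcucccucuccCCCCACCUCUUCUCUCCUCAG
Mir1981: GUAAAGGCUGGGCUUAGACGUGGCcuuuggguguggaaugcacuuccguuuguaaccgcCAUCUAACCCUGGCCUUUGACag
Mir702: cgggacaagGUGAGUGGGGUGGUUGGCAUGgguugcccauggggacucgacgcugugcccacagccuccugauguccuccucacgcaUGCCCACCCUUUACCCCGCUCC

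The miR-877 hairpin fills an intron of 85 bases in Abcf1, a gene for a translation factor of the ABC protein family (chr17:35960730-35960814, minus strand). The miR-1224 hairpin fills an intron of 85 bases in Vwa5b2 (chr16:20604452-20604536, plus strand). The miR-1981 hairpin fills an intron of 82 bases in Marc2, a gene for a mitochondrial reductase (chr1:184822407-184822488, minus strand). In these 3 cases the first and last base of the hairpin are those of the intron. The annotated miR-702 hairpin (chr5:136991433-136991541, plus strand) is shifted against its intron in Plod3, a gene for a collagen-modifying lysyl hydroxylase. That intron has 102 bases, from 136991442 to 136991543, so that the hairpin starts in the upstream exon and stops before the last bases of the intron. All 4 of the 5p arms start at base 1 of the intron (0 bases after its start), and the 3p arms end 1 base (miR-877-3p), 0 bases (miR-1224-3p), 2 bases (miR-1981-3p) and 2 bases (miR-702-3p) before its last base.

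**Figure D1:**
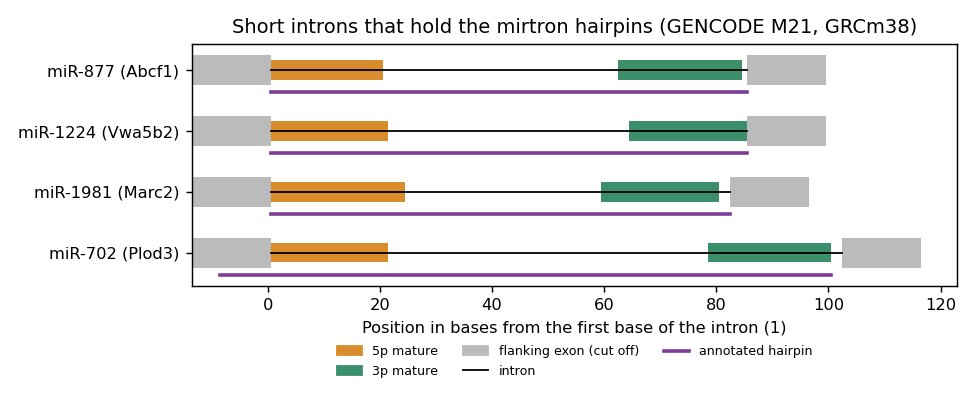
Position of the 5p arm (orange), the 3p arm (green) and the annotated hairpin (purple) along the introns of Abcf1, Vwa5b2, Marc2 and Plod3, in bases from the first base of the intron, with the flanking exons in grey. Each 5p arm starts at the first base of its intron, and each 3p arm ends within 2 bases of its last base.

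The other 3 hairpins are not bounded by splice sites. miR-320 (chr14:70443510-70443591, plus strand) lies 63 bases from the start of Polr3d, a gene for a subunit of RNA polymerase III that is read from the other strand. miR-484 (plus strand) lies within Marf1 but on the strand opposite to it and overlaps an exon of that gene, 3583 bases before Nde1 on its own strand.
Mir484, chr16:14159626-14159692: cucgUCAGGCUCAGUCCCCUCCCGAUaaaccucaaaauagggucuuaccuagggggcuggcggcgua
Mir1839, chr7:81529916-81529988: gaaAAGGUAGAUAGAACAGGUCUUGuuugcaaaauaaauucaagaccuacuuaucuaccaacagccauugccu
The miR-484 arm in capitals is on the 5′ side of its hairpin, from base 5 to base 26. The miR-1839 hairpin (plus strand) lies in an exon of the long noncoding RNA 2900076A07Rik, and 66 of its 73 bases overlap a small Cajal body RNA that GENCODE annotates from 81529855 to 81529981. These positions match the names given to the 4 mirtrons and to miR-1839, whereas a cap at the 5′ end of miR-320 or miR-484 was not measured by this assay.

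Base composition varied among the hairpins, with no test made between classes. G and C made up 61.2%, 60.0%, 53.7% and 65.1% of the miR-877, miR-1224, miR-1981 and miR-702 hairpins, against a median of 51.4% over 293 other hairpins with a tested arm. The miR-1839 hairpin held 37.0%, and only 19 of the 293 were lower. Its folding energy predicted by RNAfold was -0.301 kcal/mol per base, weaker than in all but 18 of the 293, while that of miR-1224 was -0.504 and stronger than in 236 of them.

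Levels of the 13 members ran from 0 reads to 2458 CPM. miR-484 was the most abundant, with 2423, 2458 and 2374 CPM after induction, against 2186, 2144 and 2162 CPM without induction (trials 1, 2 and 3). It ranked 44th among the 525 microRNAs abundant enough to be tested, between miR-27a-3p and miR-301a-3p. Every induced library lay above every uninduced one. miR-484 is known for targeting the mitochondrial fission factor Fis1 in mouse heart cells.

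miR-320-3p, the loaded strand of the capped miR-320 hairpin, had 302, 348 and 312 CPM after induction, against 312, 364 and 325 CPM without induction (trials 1, 2 and 3), at rank 111. The groups overlapped. miR-1839-5p had 204, 221 and 179 CPM after induction, against 183, 234 and 172 CPM without induction, at rank 126, also with overlapping groups. In both groups its highest level was in trial 2 and its lowest in trial 3.

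The mirtrons were rarer. miR-1981-3p had 67.3, 58.9 and 72.1 CPM after induction, against 49.8, 47.7 and 67.5 CPM without induction (trials 1, 2 and 3). miR-877-5p had 54.3, 41.9 and 59.1 CPM after induction, against 41.0, 44.9 and 60.6 CPM without induction. For both the uninduced library of trial 3 lay within or above the range of the induced ones, so that the groups overlapped. miR-1981-5p (38.1 to 48.3 CPM in induced and 34.2 to 44.8 CPM in uninduced libraries) and miR-877-3p (31.9 to 38.5 CPM in induced and 29.0 to 38.1 CPM in uninduced libraries) overlapped too.

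miR-702 had few reads, with miR-702-3p at rank 372 and miR-702-5p at rank 406 of the 525 tested. miR-702-3p had 85, 57 and 58 reads in the induced and 42, 42 and 55 reads in the uninduced libraries of trials 1, 2 and 3, and miR-702-5p had 45, 21 and 85 reads in the induced and 21, 26 and 25 reads in the uninduced ones. Only induced trials 1 and 3 held miR-702-5p above the uninduced libraries once scaled, at 3.74 and 6.24 CPM, against 2.24 to 2.89 CPM in uninduced cells. The induced library of trial 2 had 2.35 CPM, inside the uninduced range.

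3 members were too rare to be tested. Both arms of miR-1224, the mirtron of Vwa5b2, had 0 reads in every library, which allows up to 0.0872 CPM over the induced and 0.101 CPM over the uninduced group (3 counts, counting error only). miR-320-5p, the strand that the cap is held to keep from being loaded, had 2, 1 and 0 reads in the induced and 2, 2 and 5 reads in the uninduced libraries.

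**Figure D2:**
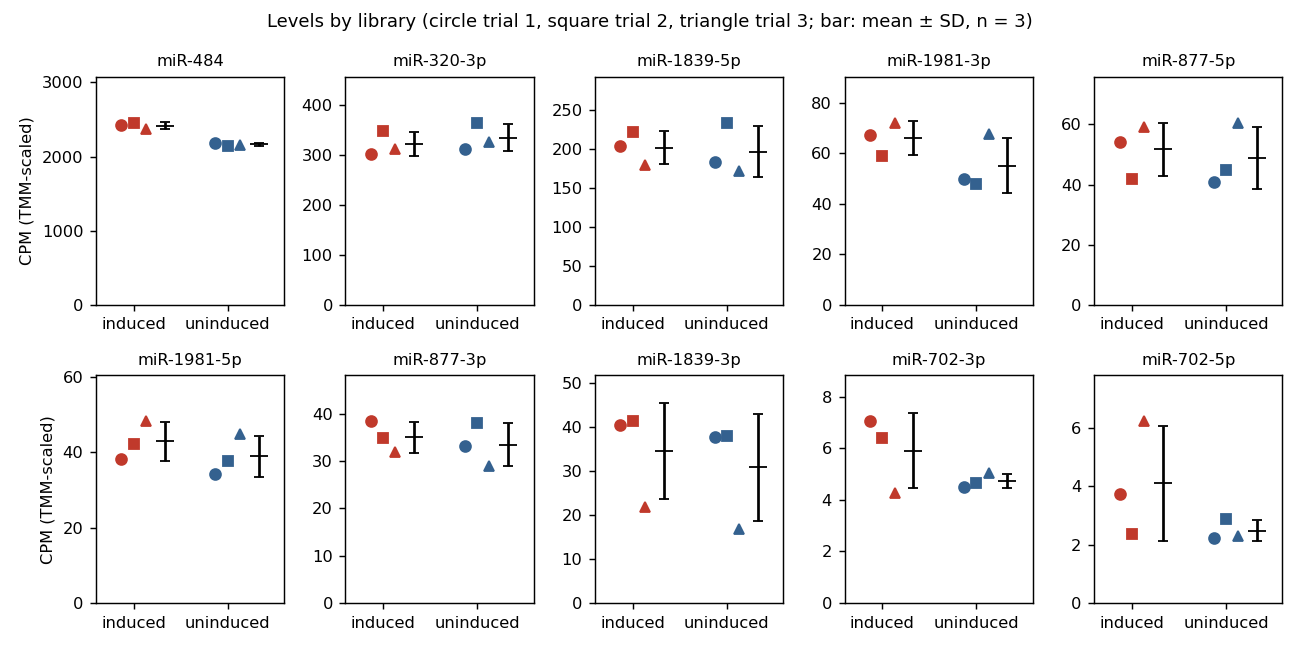
Level of each tested member in CPM after TMM scaling, with its own linear axis from 0, in induced (red) and uninduced (blue) libraries, with the mean and SD (n = 3 each). miR-484 is the only one whose induced libraries, 2374 to 2458 CPM, all lie above the uninduced ones, 2144 to 2186 CPM.

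By mean level the order of the 10 tested members was the same in both groups. In induced cells miR-1981-3p averaged 66.1 ± 6.71 CPM and miR-877-5p 51.8 ± 8.87 CPM (SD, n = 3 each). miR-877-3p at 35.0 ± 3.30 CPM and miR-1839-3p at 34.5 ± 11.0 CPM, and miR-702-3p at 5.90 ± 1.46 CPM and miR-702-5p at 4.11 ± 1.97 CPM (SD, n = 3 each), did not differ beyond their spread in induced cells. The mature sequences printed above have 20 to 24 bases, so levels were not scaled by length, but the ligation steps of small RNA kits are known to favour some ends, which limits any comparison of levels between microRNAs.

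By reported origin, the hairpins classed as capped, miR-320 and miR-484, made up 86.0% of the reads of all members. The miR-1839 hairpin, classed as snoRNA-derived, made up 7.49% and the mirtrons 6.48%. The capped sum was 2739 ± 61.1 CPM in induced and 2498 ± 10.8 CPM in uninduced libraries (SD, n = 3 each). The mirtron sum was 206 ± 17.9 CPM in induced and 183 ± 23.1 CPM in uninduced libraries, and that of miR-1839 was 236 ± 31.6 CPM in induced and 227 ± 41.8 CPM in uninduced libraries (SD, n = 3 each). The capped and mirtron sums were higher with induction in each trial, while the log2 change of the miR-1839 sum in trial 2 was -0.05. Of the capped hairpins miR-484 (146791 reads in all) was higher with induction in every trial and miR-320-3p (20727 reads in all) lower. The capped share and sum thus follow mainly miR-484. The listed arm of miR-484 lies on the 5′ side of its hairpin, the side said above to be poorly loaded when capped. A cap on miR-484 was not measured, so its place in the capped class rests on reports alone. The difference of the capped sums, 241 CPM, ran from 208 CPM (without induced trial 2) to 268 CPM (without induced trial 3) with 1 library left out. With 1 library left out, the difference of the mirtron sums, 22.5 CPM, ran from 13.2 CPM (without uninduced trial 1) to 35.4 CPM (without uninduced trial 3), and was 14.4 CPM without induced trial 3. That of the miR-1839 sums, 8.85 CPM, ran from -10.4 CPM (without uninduced trial 3) to 31.1 CPM (without uninduced trial 2), and was -4.55 CPM without induced trial 2.

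The comparison of induced with uninduced cells asks whether these microRNAs changed with doxycycline in cells that carry the PU.1 system. Of the 10 tested members 0 passed at an edgeR quasi-likelihood p of 0.05 adjusted over all 525 by Benjamini and Hochberg, against 6.1% of all tested microRNAs (32 of 525, 3.43% higher and 2.67% lower). At an unadjusted p under 0.05 there were 0 of the 10, against 20.8% of all. DESeq2, limma-voom and limma on the deposited CPM also passed 0 of the 10, against 7.05%, 4.19% and 4.38% of all. With the trial as a block, 0 of the 10 passed, against 21.7% of all (114 of 525), and 2 had an unadjusted p under 0.05, against 37.1% of all. The 10 log2 changes ran from -0.06 to 0.76 with a median of 0.15, against a median of 0.02 over all tested, and 9 of the 10 were positive, against 52.2% of all. A microRNA that is rare in a group enters the test only if it is abundant enough in the other, so these counts are a description of those that passed the filter.

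miR-484 was the tested member whose groups did not overlap. Its log2 change was 0.16 (SE 0.10, 95% interval -0.07 to 0.39, edgeR adjusted p = 0.410), and the trials gave 0.15, 0.20 and 0.14. Taking the trial as a block gave a 95% interval of -0.002 to 0.32 (SE 0.074, edgeR adjusted p = 0.138). The groups did not overlap in 1 of the 10 members, against 27.6% of all tested microRNAs (16% with the induced libraries higher). The exact two-sided permutation test, which ignores the pairing by trial, gave p = 0.1 for miR-484, the smallest that 3 against 3 allows. Its SD was 1.74% of the mean in induced and 0.968% in uninduced libraries, and counting error alone gives 0.720% in the library with the fewest reads of it. The pooled value after TMM, 1.41%, was the smallest of all 525, followed by let-7g-5p at 2.25%. That place depended on the scaling. On the deposited CPM, without TMM and scaled to the total of all entries, it was 4.28%, the 12th smallest. The groups did not overlap on either scale. The edgeR SE and p of miR-484 also draw on the spread of other tested microRNAs, so they do not rest on its own spread alone.

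**Figure D3:**
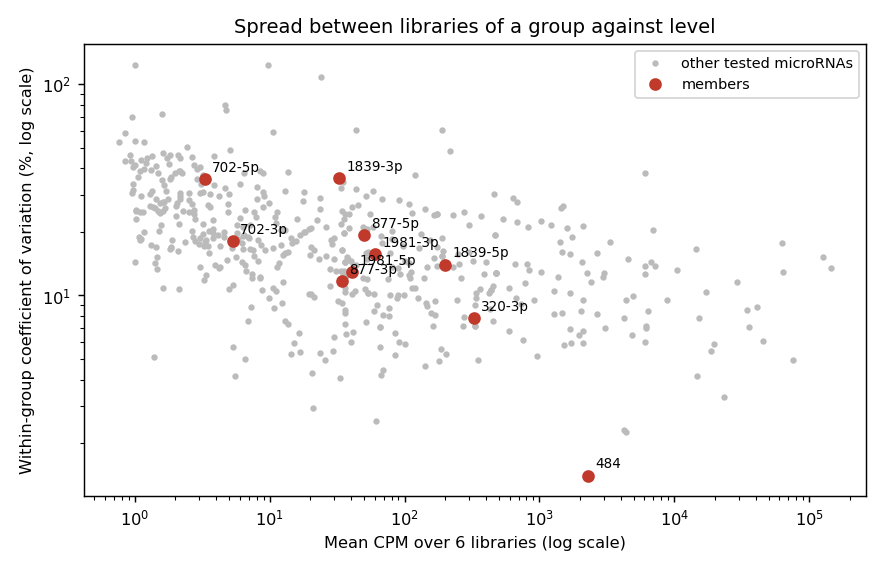
Within-group coefficient of variation (SD as a percentage of the mean, pooled over both groups) against mean CPM for the tested microRNAs, both axes on a log scale. miR-484 lies at the bottom at 1.41%, miR-320-3p at 7.84%, and the arms miR-1839-3p and miR-702-5p rank 468th and 466th from the smallest.

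miR-320-3p was the only tested member below its uninduced level in every trial, by small amounts. Its log2 change was -0.06 (SE 0.13, 95% interval -0.35 to 0.23, edgeR adjusted p = 0.847), and the trials gave -0.05, -0.06 and -0.06. The interval leaves room for a level between 0.785-fold and 1.18-fold of the uninduced one. The difference between the responses of miR-320-3p and miR-484 was not tested.

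Of the mirtrons, both arms of miR-1981 were higher with induction in all 3 trials, as were miR-484 and miR-1839-3p and 29% of all tested microRNAs. miR-1981-3p had a log2 change of 0.27 (SE 0.17, 95% interval -0.12 to 0.65, edgeR adjusted p = 0.416) and miR-1981-5p of 0.14 (SE 0.16, 95% interval -0.22 to 0.50). Without induced trial 3 they were 0.16 and 0.01, and without uninduced trial 3 they were 0.44 and 0.25. With the trial as a block, the 95% interval of miR-1981-3p was 0.06 to 0.49, and its edgeR adjusted p, 0.0666, the smallest of the members, did not pass 0.05. The arms of miR-877 had the same sign in trials 1 and 2 and opposite signs in trial 3. miR-877-5p changed by 0.41, -0.10 and -0.04 and miR-877-3p by 0.22, -0.13 and 0.13 on the log2 scale in trials 1, 2 and 3. Their fitted values were 0.09 (SE 0.19) and 0.07 (SE 0.16), and the 95% interval of miR-877-5p reached from -0.35 to 0.52.

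miR-702-5p had the largest fitted change, 0.76 on the log2 scale (SE 0.35, 95% interval -0.02 to 1.55, edgeR adjusted p = 0.243). It rested on single libraries, with 0.74, -0.30 and 1.45 in trials 1, 2 and 3, and came to 0.29 without the induced library of trial 3. With the trial as a block its 95% interval was 0.08 to 1.41, with an edgeR adjusted p of 0.102. The other arm, miR-702-3p, had 0.65, 0.45 and -0.24 in the same trials, so the arms disagreed in trials 2 and 3. Its fitted change, 0.31 (SE 0.24), was 0.16 without induced trial 1 and 0.47 without induced trial 3. miR-1839-5p and miR-1839-3p had fitted changes of 0.04 (SE 0.16) and 0.16 (SE 0.33).

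**Figure D4:**
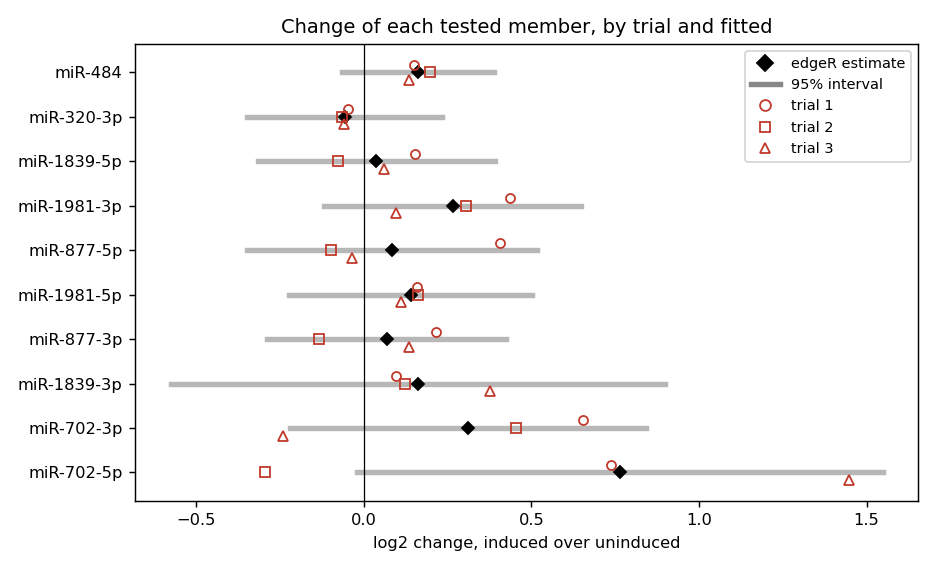
Log2 change of each tested member, induced over uninduced, as fitted by edgeR without a block (black diamonds, grey bars for the 95% interval) and for each trial (open red symbols), ordered by level. All 10 of these intervals cross 0, whereas with the trial as a block those of miR-1981-3p (0.06 to 0.49) and miR-702-5p (0.08 to 1.41) do not. The trials lie close together for miR-484, miR-320-3p and miR-1981-5p and far apart for miR-702-5p.

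miR-320 was read from its 3p arm almost alone. Its 5p arm gave 12 of 20739 reads, or 0.0579% (exact 95% interval 0.0299 to 0.101%), which is 1727 reads of the 3p arm for each of the 5p arm. Whether the ligation steps capture a strand with a cap at its 5′ end as well as other strands was not tested. miR-484 is listed with 1 arm only. miR-1839 favoured its 5p arm, with 85.6% ± 3.06 of the reads of the hairpin in induced and 86.7% ± 4.12 in uninduced libraries (SD, n = 3 each).

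Of the mirtrons, miR-877, miR-1981 and miR-702 gave reads from both arms, and miR-1224 gave 0 from either. The 5p arm of miR-877 took 59.4% ± 5.20 in induced and 59.0% ± 7.48 in uninduced libraries, and that of miR-1981 took 39.4% ± 2.89 in induced and 41.6% ± 2.30 in uninduced libraries (SD, n = 3 each). The arms of miR-877, miR-1981 and miR-702 were within 2-fold of each other (1.47-fold, 1.48-fold and 1.61-fold by mean CPM), which held for 31 of the 150 hairpins with both arms tested, where the median was 9.19-fold. For miR-702 this rested on induced trial 3, the only library in which its 5p arm had more reads, and the arms were 2.05-fold apart without it.

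That balance was not general among microRNAs with hairpins bounded by an intron. By the annotation, 36 other hairpins have both ends within 20 bases of the ends of an intron, 15 of them with at least 50 reads here. Of these 15, 10 had more 3p than 5p reads and 9 had under 20% from the 5p arm. Among the 9 was miR-7068, in an intron of Cherp, with 7 reads of the 5p and 2322 reads of the 3p arm. Others were about as balanced as the members. miR-7012, miR-7091 and miR-5132 had 51.4%, 59.4% and 63.2% from the 5p arm, on at most 98 reads of either arm. let-7i also met the rule, through a transcript of D630033A02Rik, although it is a classical Drosha product, and it was read at 99.8% from its 5p arm. The difference in arm balance between the members and these hairpins was not tested.

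The arm test covered 4 of the member hairpins, and none of them passed. Of the 150 hairpins with both arms tested, edgeR's test of unequal change of the arms (diffSpliceDGE with Benjamini-Hochberg adjustment) passed 0 (0%), with 4 at an unadjusted p under 0.05 (2.67%), 0 of them members. With the trial as a block, 0 passed as well (0%), with 26 at an unadjusted p under 0.05 (17.3%). For miR-877, miR-1981, miR-1839 and miR-702 the 5p to 3p ratio changed by 0.02, -0.12, -0.12 and 0.45 on the log2 scale, with edgeR adjusted p from 0.985 to 0.991. The mean share of the 5p arm differed between induced and uninduced libraries by 0.388, -2.24, -1.05 and 6.05 percentage points in the same order. miR-320, whose 5p arm was too rare for that test, had 5p shares of 0.0550%, 0.0322% and 0% in the induced and 0.0684%, 0.0611% and 0.141% in the uninduced libraries of trials 1, 2 and 3. These groups did not overlap, on 3 reads of the 5p arm in induced and 9 in uninduced cells. How many other hairpins had 5p shares that did not overlap was not counted. The exact two-sided permutation p was 0.1, the smallest possible when the pairing by trial is ignored.

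Trial 3 stood apart in arm use for some members, in both groups. For miR-877 the 5p share was 58.5%, 54.7% and 65.0% in the induced and 55.3%, 54.1% and 67.6% in the uninduced libraries of trials 1, 2 and 3. For miR-1839 it was 83.5%, 84.3% and 89.1% in the induced and 82.9%, 86.0% and 91.1% in the uninduced libraries. Trial 3 had the highest share of both hairpins in each group, while the exact 95% intervals of single libraries were at most 7.59 points wide for miR-877 and 3.29 points for miR-1839. miR-1981 showed no such shift, with 40.1% in trial 3 of the induced and 39.9% in trial 3 of the uninduced libraries.

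**Figure D5:**
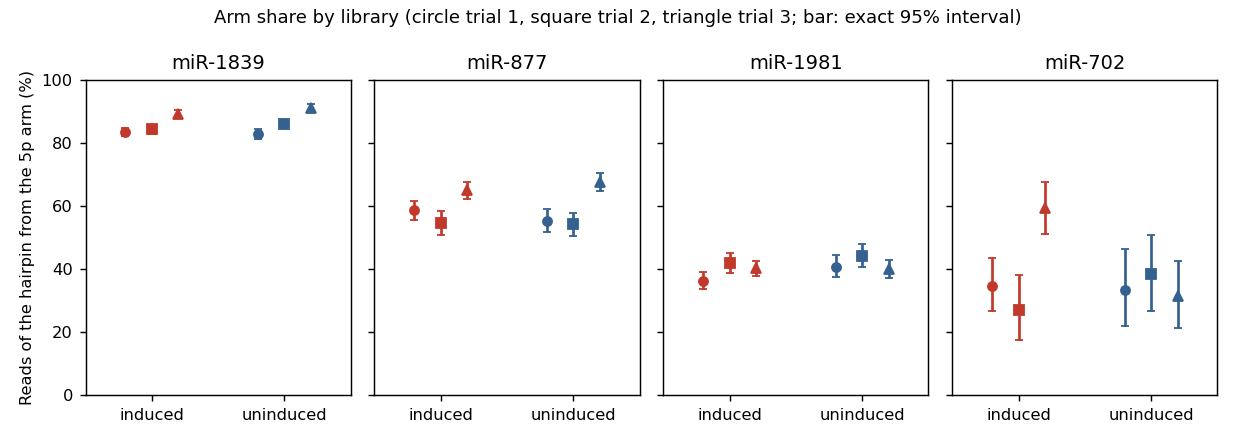
Share of the reads of each hairpin that came from its 5p arm, in percent, by library, with exact 95% binomial intervals that cover counting error only. The triangles of trial 3 lie highest in both groups for miR-1839 (89.1% induced, 91.1% uninduced) and miR-877 (65.0% induced, 67.6% uninduced), and for miR-702 only the induced trial 3 stands apart, at 59.4%.

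In miR-1839 both arms were lowest in trial 3, the 3p arm by more. miR-1839-3p had 40.4, 41.4 and 21.9 CPM after induction, against 37.8, 38.0 and 16.8 CPM without induction (trials 1, 2 and 3), so that trial 3 was the lowest of both groups and the groups overlapped. Trial 3 was also lowest in both groups for miR-1839-5p and miR-877-3p, and highest in both for miR-877-5p and both arms of miR-1981. Among all tested microRNAs trial 3 was lowest in both groups for 24.2% and highest in both for 21.7%, so that 3 and 3 of 10 members are near the rest. On the log2 scale the 5p to 3p ratio of trial 3 exceeded that of trials 1 and 2 by 0.78 for miR-1839 and 0.65 for miR-877, averaged over the groups, the 17th and 25th largest difference in size among 148 hairpins, whose median was 0.32. The labels give no more about the trials than their number, and what differed in trial 3 was not tested.

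Other microRNAs of unusual origin were followed for comparison. miR-451a, the erythroid microRNA cut by Argonaute 2 in place of Dicer, had 17 reads in all, at 0.112 to 0.367 CPM, and was too rare to be tested. miR-664, whose hairpin overlaps Snora36b, had miR-664-3p at 38.1, 47.2 and 24.7 CPM after induction, against 32.7, 41.0 and 20.1 CPM without induction (trials 1, 2 and 3), lowest in trial 3 of both groups like miR-1839-3p. Its log2 change was 0.23 (SE 0.29, edgeR adjusted p = 0.689), that of miR-664-5p 0.17 (SE 0.15, edgeR adjusted p = 0.547) and that of miR-1291, from Snora34, 0.03 (SE 0.29, edgeR adjusted p = 0.967).

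Among hairpins that overlap an annotated snoRNA or small Cajal body RNA, 15 microRNAs other than those of miR-1839 were tested. Their median log2 change was 0.17, against 0.02 over all tested, and 1 passed, against 6.1% of all (32 of 525). This was miR-1843b-5p, over Scarna3a, at 0.74 (SE 0.17, edgeR adjusted p = 0.035), with 37.1, 46.0 and 32.9 CPM after induction, against 24.8, 22.0 and 22.3 CPM without induction. With the trial as a block, 6 of the 15 passed, against 21.7% of all. Among the other intron-bounded hairpins 15 microRNAs were tested, with a median of 0.42, and 0 passed in edgeR. At an unadjusted p under 0.05 there were 5, against 20.8% of all. With the trial as a block 2 passed, namely miR-7068-3p and miR-6989-3p, against 21.7% of all. These 2 had log2 changes of 0.46 (SE 0.15) and 0.65 (SE 0.22), against 0.07 to 0.76 for the arms of the member mirtrons.

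The 3 microRNAs whose profile over the 6 libraries was closest to that of miR-484 were miR-106b-3p, miR-330-3p and miR-195a-5p. Their centred log2 CPM differed from that of miR-484 by a root mean square of 0.04, 0.05 and 0.06 over the 6 libraries, out of 519 microRNAs compared. They had log2 changes of 0.13, 0.23 and 0.19, none of which passed the test (edgeR adjusted p of 0.598, 0.411 and 0.534).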

How the data were processed

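Small RNA was sequenced in 3 induced and 3 uninduced libraries. Per the series' design text, reads were aligned to miRBase. Trim Galore (0.4.0), DESeq2 (2.1.8.0 as listed) and mm10 are named per the submitters' processing notes. For the read counter, the miRBase release and reads with several matches, the sources used here give nothing. The authors deposited raw counts per library and a table in CPM; each CPM value was within 0.005 of the count over its library's total. Of 2061 entries, the one with the highest total was kept per name, and no member had several. That choice left out 17.5% of the counts of all entries, which the deposited CPM include in their totals.

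Group differences come from edgeR 4.0.16 under R 4.3.3 (TMM, filterByExpr, robust glmQLFit, two-sided glmQLFTest, adjusted p threshold 0.05) without a block, and arm use from diffSpliceDGE on hairpins with arms matched by name, as were arms absent from the RefSeq table. DESeq2 1.42.0, limma 3.58.1, other scalings, entry choices, filters and left-out libraries were alternatives. Functions were tested on simulated data. SE and intervals follow from the fold change and its F statistic. Folding used RNAfold 2.7.2. Every member is named, beside the microRNAs closest in profile to miR-484 and a fixed list of other unusual origins. The members and lists were chosen with earlier results of these data known. The list of snoRNA overlaps, and the microRNAs named from it or from the other intron-bounded hairpins, were chosen after their values were seen.

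Trials 1 to 3 are numbered in both groups by the labels. Deviations from the group means correlated between same-trial libraries by 0.33, 0.45 and 0.53 across microRNAs, so the trials were taken to pair the samples. All pairs of replicate libraries differed by more than counting noise, with a chi-square of at least 115 for each degree of freedom.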

Additional observations from a re-analysis of the deposited data

How the results depend on the processing

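No member passed the test under any of 20 alternatives. The smallest edgeR adjusted p was 0.0512, for miR-702-5p with both libraries of trial 2 left out and a replicate block. Of 200 member values, 186 kept their direction. The count over all 525 was 32, and 114 with the trial as a replicate block, which changed no call of a member. It ranged from 12 to 41 when 1 library was left out. Without both libraries of trial 1 it was 11, and 66 with the replicate block. Without trial 2 it was 11, and 60 with the block, and without trial 3 the block gave 12. Arm use gave 0 calls in the alternatives run for it.

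With 1 library left out, log2 changes ranged from -0.132 to 0.0188 for miR-320-3p, -0.0575 to 0.191 for miR-1839-5p, -0.0560 to 0.270 for miR-877-5p, -0.0311 to 0.184 for miR-877-3p and -0.151 to 0.368 for miR-1839-3p. They ranged from 0.0084 to 0.253 for miR-1981-5p, 0.162 to 0.438 for miR-1981-3p, 0.158 to 0.472 for miR-702-3p, 0.290 to 1.01 for miR-702-5p and 0.136 to 0.166 for miR-484. The 5p to 3p ratio changes ranged from -0.152 to 0.301 for miR-877, -0.337 to 0.0939 for miR-1839 and -0.182 to 0.769 for miR-702. Without both libraries of trial 1, miR-1839-5p came to -0.0215 (-0.0099 with the replicate block), miR-877-5p to -0.0582 (-0.0662 with the block) and miR-877-3p to -0.0132. The cause was not tested. Both arms of miR-702 had 21 to 85 reads per library, which limits their precision. The pooled spread of miR-484 on the deposited CPM, 4.28%, and the fold between arms with 1 library left out were alternatives chosen after seeing the data.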
